A study of Mus musculus with 8 samples.

Results

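Class I odorant receptors are one of the 2 classes of odorant receptor in the mouse nose. They are G protein-coupled receptors of olfactory sensory neurons, and each such neuron uses a single receptor gene. Class I receptors resemble the receptors of fish, many respond to water-soluble odorants such as carboxylic acids, and most of them are used by neurons of the dorsal part of the olfactory epithelium. Their genes stand in a single cluster, where an enhancer called the J element acts over long distances, and they share the tissue with class II receptors and with the trace amine-associated receptors (Taar).

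The class I receptors were taken as the genes with the symbols Olfr33, Olfr64 to Olfr69, Olfr78 and Olfr543 to Olfr692, without pseudogene symbols. This gave 126 of the 54982 genes measured, beside 987 receptors with other Olfr numbers, called class II here. All 126 lay between 102476579 and 105369355 of chromosome 7 (GRCm38), a stretch of 2.89 Mb, with 63 genes on each strand. GENCODE listed 123 of them as protein coding, Olfr663 and Olfr664 as polymorphic pseudogenes and Olfr687 as a transcribed pseudogene. The gene named Olfr643 in the data carries another name in GENCODE M21 (4930516K23Rik) and overlaps the gene that this annotation calls Olfr643.

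Total RNA of the olfactory mucosa, the lining of the nose that holds these neurons, was sequenced from mice at postnatal day 30. There were 4 libraries with the T element deletion (ΔTE1+2), which removes the Taar enhancers TE1 and TE2, and 4 control libraries. All 8 were labelled male and of the mixed strain 129S6;C57BL/6J, and the deleted enhancers act on the Taar cluster of another chromosome. The labels give a number for each sample but do not say that each is a separate animal, so p-values measure the spread between these samples, which may be technical.

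Values below are scaled reads, the reads of a gene divided by a size factor of its library. Libraries held 37410384, 36359734, 44114750 and 43649337 reads in deletion replicates 1 to 4, and 50748777, 40409415, 31655524 and 40516222 reads in control replicates 1 to 4. The 14 olfactory Taar genes summed to 14.1, 12.1, 23.7 and 75.8 scaled reads in deletion replicates 1 to 4, against 2899 to 3788 in the controls, so every library matched its genotype label, with the most remaining reads in deletion replicate 4. Deletion replicate 3 did not match the label male. Xist, the RNA of the inactive X chromosome, was at 15300 scaled reads there, against 5.42 to 86.9 in the other 7 libraries, and the Y-linked gene Ddx3y was at 5.69, against at least 2716 in each of the others. The class I sum, share and median, the count of members with a small p, Olfr78 and Olfr558 are given with and without this library. The limma calls were also repeated without it, and most other results include it. Mature neuron markers (8 genes, Omp among them) summed to 11089 to 12118 CPM, reads scaled to one library total for all, in deletion libraries and 10097 to 11757 CPM in controls, and none of the 8 was at 0 in any library.

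Several class I receptors are close copies of a neighbour, and reads of such pairs can be hard to assign. Over the exons, 93 of the 126 members shared at least 1 stretch of 50 bases with another gene and 36 shared over 10% of theirs, with a median of 2.57%. In their longest open reading frames 31 members were at least 90% identical to another member. The coding stretch around the conserved receptor motif at the inner end of the third transmembrane segment shows how close some of the pairs named below are. In each line the 18 bases of that motif are in capitals, and a match to its coding letters was found in frame in 71 of the 126 members. The lines give 60 bases of coding sequence from GENCODE M21 transcripts, 5′ to 3′ in the direction of transcription.
Olfr597: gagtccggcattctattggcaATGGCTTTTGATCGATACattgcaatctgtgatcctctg
Olfr598: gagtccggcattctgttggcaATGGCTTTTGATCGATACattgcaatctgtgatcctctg
Olfr611: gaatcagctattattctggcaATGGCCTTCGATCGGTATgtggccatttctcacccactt
Olfr612: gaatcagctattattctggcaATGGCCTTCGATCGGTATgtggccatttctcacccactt
Olfr585: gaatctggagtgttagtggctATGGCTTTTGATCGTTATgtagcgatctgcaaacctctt
Olfr566: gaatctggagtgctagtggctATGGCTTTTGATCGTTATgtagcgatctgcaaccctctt
Olfr543: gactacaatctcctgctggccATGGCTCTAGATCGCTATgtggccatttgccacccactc
Olfr560: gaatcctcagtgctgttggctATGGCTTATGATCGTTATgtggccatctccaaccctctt
Olfr618: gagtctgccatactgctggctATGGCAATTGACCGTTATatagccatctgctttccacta
Olfr672: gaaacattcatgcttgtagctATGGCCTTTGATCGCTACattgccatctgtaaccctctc
Counting from 1 at the 5′ end of each line, Olfr597 and Olfr598 differ by A15G, Olfr585 and Olfr566 by T13C and A54C, and Olfr611 and Olfr612 by no base. Over the whole open reading frame the first of these pairs was 98.0% identical and the last 97.5%. Olfr543, Olfr618 and Olfr568 shared no stretch of 50 bases with any other gene, so their reads can be told apart at that length.

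Nearly all class I receptors were detected, at levels that spanned 3 orders of magnitude. Per kb of exon the members ran from 0.410 to 509 scaled reads over all libraries, with a median of 66.3, against a median of 51.0 for the 987 class II receptors. Of the 126 members, 28 were above 100 scaled reads per kb, 92 between 10 and 100, and 6 below 10. Members with more than one exon block in the annotation (109) had a median of 70.7 scaled reads per kb, and the 17 annotated with a single block had 18.1.

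Olfr672 stood highest, with 519 scaled reads per kb in the deletion libraries and 499 in the controls. Below it came Olfr598 (304 in deletion, 286 in control libraries), Olfr665 (280 in deletion, 307 in control) and Olfr549 (268 in deletion, 260 in control). Olfr570 (248 in deletion, 253 in control), Olfr653 (225 in deletion, 213 in control), Olfr610 (227 in deletion, 207 in control) and Olfr690 (176 in deletion, 172 in control) followed. For Olfr672 the scaled reads were 686, 715, 995 and 698 in deletion replicates 1 to 4, against 799, 858, 688 and 628 in control replicates 1 to 4, and the groups overlapped. The log2 change, deletion minus control on log2(scaled reads + 1), was 0.05 ± 0.14 (SE) for Olfr672. In these 8 most abundant receptors it ran from -0.12 (Olfr665) to 0.13 (Olfr610), with a limma adjusted p of at least 0.876 each. The 10 members with the most reads took 22.8% ± 0.266 of class I reads in deletion libraries and 22.9% ± 0.479 in controls (SD, n = 4 each), so no few receptors dominated the class in either group.

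**Figure D1:**
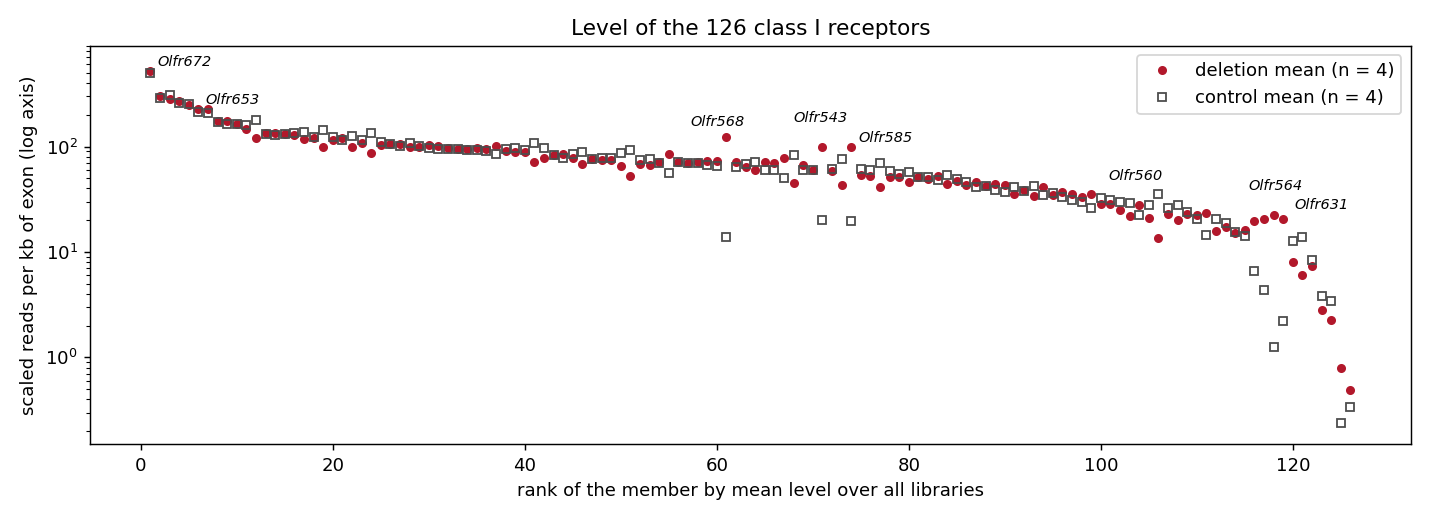
Mean scaled reads per kb of exon (log axis) of each of the 126 class I receptors, ranked by the mean over all libraries, in deletion libraries (filled circles, n = 4) and control libraries (open squares, n = 4). The pairs of symbols lie close together along most of the curve. Olfr568, Olfr543, Olfr585, Olfr564 and Olfr631 stand out with the deletion mean above the control mean, and Olfr560 with the deletion mean below it.

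Summed over the class, the difference between the groups was smaller than the spread between libraries. They took 655, 678, 862 and 672 CPM in deletion replicates 1 to 4, against 758, 893, 784 and 607 CPM in control replicates 1 to 4. The means were 717 ± 97.2 CPM in deletion libraries and 761 ± 118 CPM in controls (SD, n = 4 each), a difference of -5.78%, and the groups overlapped. Class II receptors took 6374 ± 427 CPM in deletion libraries and 6210 ± 689 CPM in controls. The class I share of all receptor reads sets class I against the other receptors of the same library. It was 9.19%, 9.51%, 13.0% and 9.01% in deletion replicates 1 to 4, against 10.5%, 14.2%, 10.1% and 9.21% in control replicates 1 to 4. Here deletion replicate 3 and control replicate 2 were high and the other 6 libraries lay between 9.01% and 10.5%. In bulk tissue, fewer neurons that use a receptor and less RNA per neuron cannot be told apart. Leaving out 1 library at a time, the difference of the summed CPM ran from -12.1% (without deletion replicate 3) and -11.7% (without control replicate 4) to 0.0265% (without control replicate 2). That of the share ran from -1.77 percentage points without deletion replicate 3 to 0.243 without control replicate 2, so the size and direction of both rest on single libraries.

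**Figure D2:**
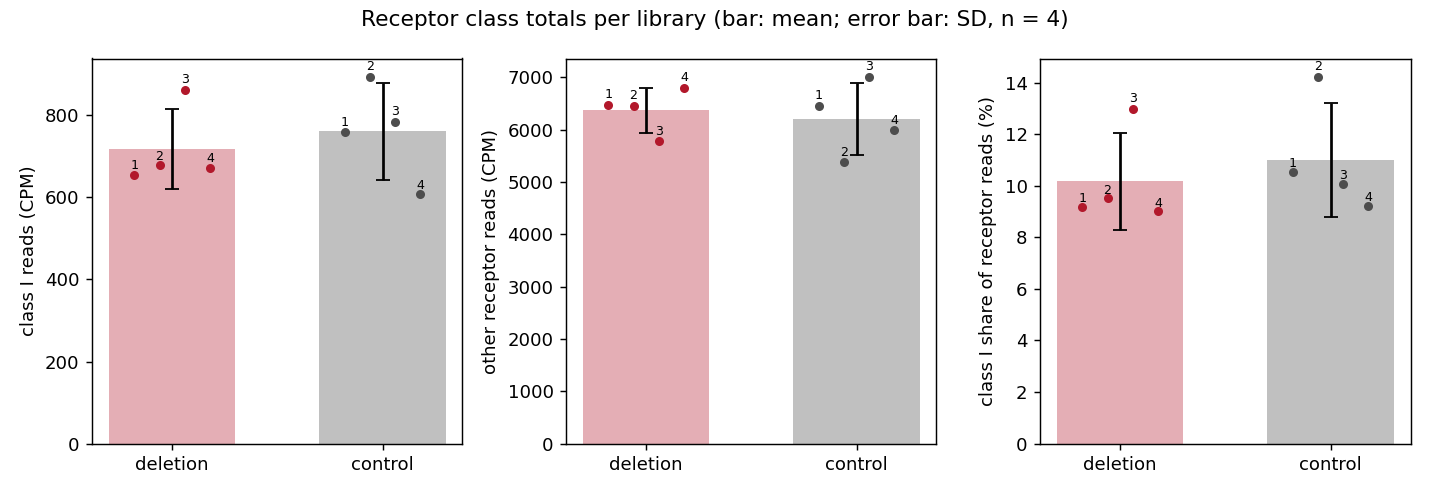
CPM of class I receptors and of the other odorant receptors, and the class I share of receptor reads, for each library (points, numbered by replicate), with group means (bars) and SD (error bars, n = 4). Deletion replicate 3 and control replicate 2 have the highest class I shares, at 13.0% and 14.2%, and the groups overlap in all 3 measures.

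The number of class I receptors detected was close in both groups. After each library was thinned to the smallest total, 119, 119, 119 and 114 members had at least 10 reads in deletion replicates 1 to 4, against 115, 115, 117 and 113 in control replicates 1 to 4. The ratio of the group means was within 1.5-fold for 102 of the 116 members that passed the filter on low values. The median log2 change was -0.03 over these 116, against 0.09 over 922 class II receptors and 0.02 over all 21974 genes tested, with 48 members above 0 and 68 below. Without deletion replicate 3 the class I median was -0.17. That library was above the controls across the class, with a median departure of 0.33 (log2) from the mean of the controls, against -0.16, -0.12 and -0.18 in deletion replicates 1, 2 and 4. It was the only deletion library outside the range of the controls, above it, for 20 of 116 members, against 6.63% of all genes tested. Its mature neuron markers were the lowest of the deletion libraries at 11089 CPM and its sustentacular markers the highest of all 8 at 14729 CPM; their part in its class I level was not tested.

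No class I receptor passed the test across all genes. Limma called 0 of 116 members at an adjusted p under 0.05 with 16 of 21974 genes called (0.0728%), and edgeR's quasi-likelihood test also called 0, against a share of 0.0728% over all genes. Before adjustment, 15 members had a limma p under 0.05, where the share over all genes was 3.5%. Of them 4 were higher in deletion libraries, against 1.58% of all genes, and 11 lower, against 1.92%. Without deletion replicate 3 there were 22, where that share was 3.25%. By edgeR 14 members had an unadjusted p under 0.05, against 4.15% of all genes, and by DESeq2 16, against 4.53%. After adjustment DESeq2 called 2 members, Olfr543 and Olfr568, against 0.105% of all genes. The authors' deposited table lists the same 2, with adjusted p-values of 0.00523 and 0.00644, and 0.071% of all its genes. Both were higher in deletion libraries, and both are described next by library, because their means hide how the libraries divide.

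Olfr543, the first gene of the cluster (102476579 to 102481679, minus strand), had 237, 154, 155 and 32.0 scaled reads in deletion replicates 1 to 4, against 36.5, 21.3, 32.2 and 27.5 in control replicates 1 to 4. Deletion replicates 1, 2 and 3 were far above every control and deletion replicate 4 lay inside the control range. The log2 change was 1.98 ± 0.53 (SE; limma adjusted p = 0.869), and DESeq2 gave 2.28 with an adjusted p of 0.00117. Olfr568 (102877122 to 102878063, plus strand) had 203, 107, 144 and 13.7 scaled reads in deletion replicates 1 to 4, against 9.72, 11.1, 18.03 and 13.8 in control replicates 1 to 4. Its libraries divided in the same way, with a log2 change of 2.58 ± 0.72 (limma adjusted p = 0.869; DESeq2 adjusted p = 0.000157). Olfr585 (103097720 to 103098749, plus strand) had 177, 133, 87.2 and 10.96 scaled reads in deletion replicates 1 to 4, against 18.6, 18.5, 27.0 and 16.7 in control replicates 1 to 4. Its log2 change was 1.76 ± 0.75 (limma adjusted p = 0.869), and here deletion replicate 4 was below every control.

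When deletion replicate 4 was left out, limma called these 3 receptors, Olfr543, Olfr568 and Olfr585, and no other member. Their log2 changes were then 2.59, 3.41 and 2.62, with adjusted p-values of 0.00127, 0.000651 and 0.00333. The share of all genes called in that fit was 0.138%. Each library was left out in turn, and without any other single library limma called no member. Deletion replicate 4 is the library that lacks the rise at these genes, so its removal favours such calls. The fit is shown because of those values, and its p-values are no independent support. Olfr585 shared 23.8% of its 50-base stretches with another gene, most with Olfr583, which had at most 13.0 scaled reads in any library.

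The same division by library appeared in members with too few reads for the main test, chosen here after their values were seen. With no filter on low values, limma tested all 126 members and called none. Olfr564 had 31, 18, 31 and 2 reads in deletion replicates 1 to 4, against 0, 1, 3 and 0 in control replicates 1 to 4. In the coding stretch around the receptor motif, Olfr564 differs by a single base from Olfr560, which was low in deletion replicates 1, 2 and 3. Reads of this pair can thus be hard to assign. For Olfr631 the reads were 31, 20, 21 and 3 in deletion replicates 1 to 4, against 3, 1, 4 and 0 in the controls. Olfr603 had 25, 22, 32 and 3 reads in deletion replicates 1 to 4, against 4, 5, 7 and 1 in the controls, but its open reading frame is 99.5% identical to that of Olfr596 and it shared 76.0% of its 50-base stretches. Olfr547 had 24, 10, 34 and 5 reads in deletion replicates 1 to 4, against 9, 5, 6 and 5 in the controls. In all 4 genes deletion replicates 1, 2 and 3 were above every control. No share over all genes below the filter was counted, so this division cannot be called particular to class I. Over the 116 tested members, 3 (2.59%) had deletion replicate 4 inside the control range and the other 3 deletion libraries above it, near the 1.91% of all genes. The other 3 lay below it in 5 members (4.31%), against 1.48% of all genes. The other 6 members below the filter were Olfr589, Olfr687, Olfr583, Olfr574, Olfr688 and Olfr663, and of them Olfr589 had 3, 4, 10 and 7 reads in deletion replicates 1 to 4, against 20, 14, 13 and 8 in the controls.

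Other receptors were low in deletion libraries, most of all in deletion replicate 1. Olfr597 (103316315 to 103322799, plus strand) had 13.0, 101, 148 and 214 scaled reads in deletion replicates 1 to 4, against 198, 227, 196 and 204 in control replicates 1 to 4. Its log2 change was -1.33 ± 0.81 (limma adjusted p = 0.869). Its neighbour Olfr598, which differs from it by a single base in the stretch printed above, had 554, 508, 800 and 604 scaled reads in deletion replicates 1 to 4, against 576, 623, 593 and 524 in the controls. The groups overlapped for Olfr598, whose log2 change was 0.07 ± 0.13.

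Olfr611 (103516465 to 103520846, minus strand) had 18.4, 162, 139 and 165 scaled reads in deletion replicates 1 to 4, against 245, 216, 219 and 167 in control replicates 1 to 4. All 4 deletion libraries were below all controls, by a wide margin in deletion replicate 1 alone, and the log2 change was -1.19 ± 0.68 (limma adjusted p = 0.869). Its close copy Olfr612 was at 53.1, 110, 161 and 122 scaled reads in deletion replicates 1 to 4, against 157, 134, 130 and 129 in the controls.

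Olfr618 (103590103 to 103600448, plus strand) had the smallest p of the members. It had 88.8, 117, 164 and 230 scaled reads in deletion replicates 1 to 4, against 310, 249, 290 and 247 in control replicates 1 to 4, with no overlap between groups and a log2 change of -0.95 ± 0.25 (limma adjusted p = 0.869). Olfr560 (102751818 to 102759366, minus strand) had 9.75, 20.9, 29.4 and 58.4 scaled reads in deletion replicates 1 to 4, against 75.3, 71.2, 107 and 53.1 in the controls, a log2 change of -1.56 ± 0.45 (limma adjusted p = 0.869). Its exons overlap those of Olfr78 on the same strand and 44.1% of its 50-base stretches were shared, so its reads are uncertain. In both genes deletion replicate 4 was the highest deletion library and deletion replicate 1 the lowest.

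Olfr552, Olfr566, Olfr643 and Olfr592 completed the 6 members with the smallest p among the lower ones, with log2 changes of -0.64 ± 0.20, -0.64 ± 0.24, -0.43 ± 0.15 and -0.57 ± 0.18 (SE; limma adjusted p = 0.869 each). Olfr566 was at 144, 203, 288 and 363 scaled reads in deletion replicates 1 to 4, against 372, 389, 370 and 337 in the controls. Olfr592 was at 483, 597, 634 and 588 scaled reads in deletion replicates 1 to 4, against 933, 1078, 917 and 572 in the controls, and for it 1 deletion library was below every control.

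Among the higher members with the smallest p, Olfr619, Olfr623 and Olfr628 followed the 3 receptors above. Olfr619 was at 157, 101, 97.6 and 88.6 scaled reads in deletion replicates 1 to 4, against 44.5, 86.9, 76.0 and 77.7 in the controls, with no overlap and a log2 change of 0.64 ± 0.25 (limma adjusted p = 0.869). Olfr623 and Olfr628 had log2 changes of 0.54 ± 0.25 and 0.68 ± 0.37 (SE; limma adjusted p = 0.869 each), and their groups overlapped. Over the 116 members the groups did not overlap for 1 higher gene, Olfr619, where 0.983% of all genes did so, and for 2 lower genes, Olfr611 and Olfr618, where 1.22% did so; the class shares are near these backgrounds.

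**Figure D3:**
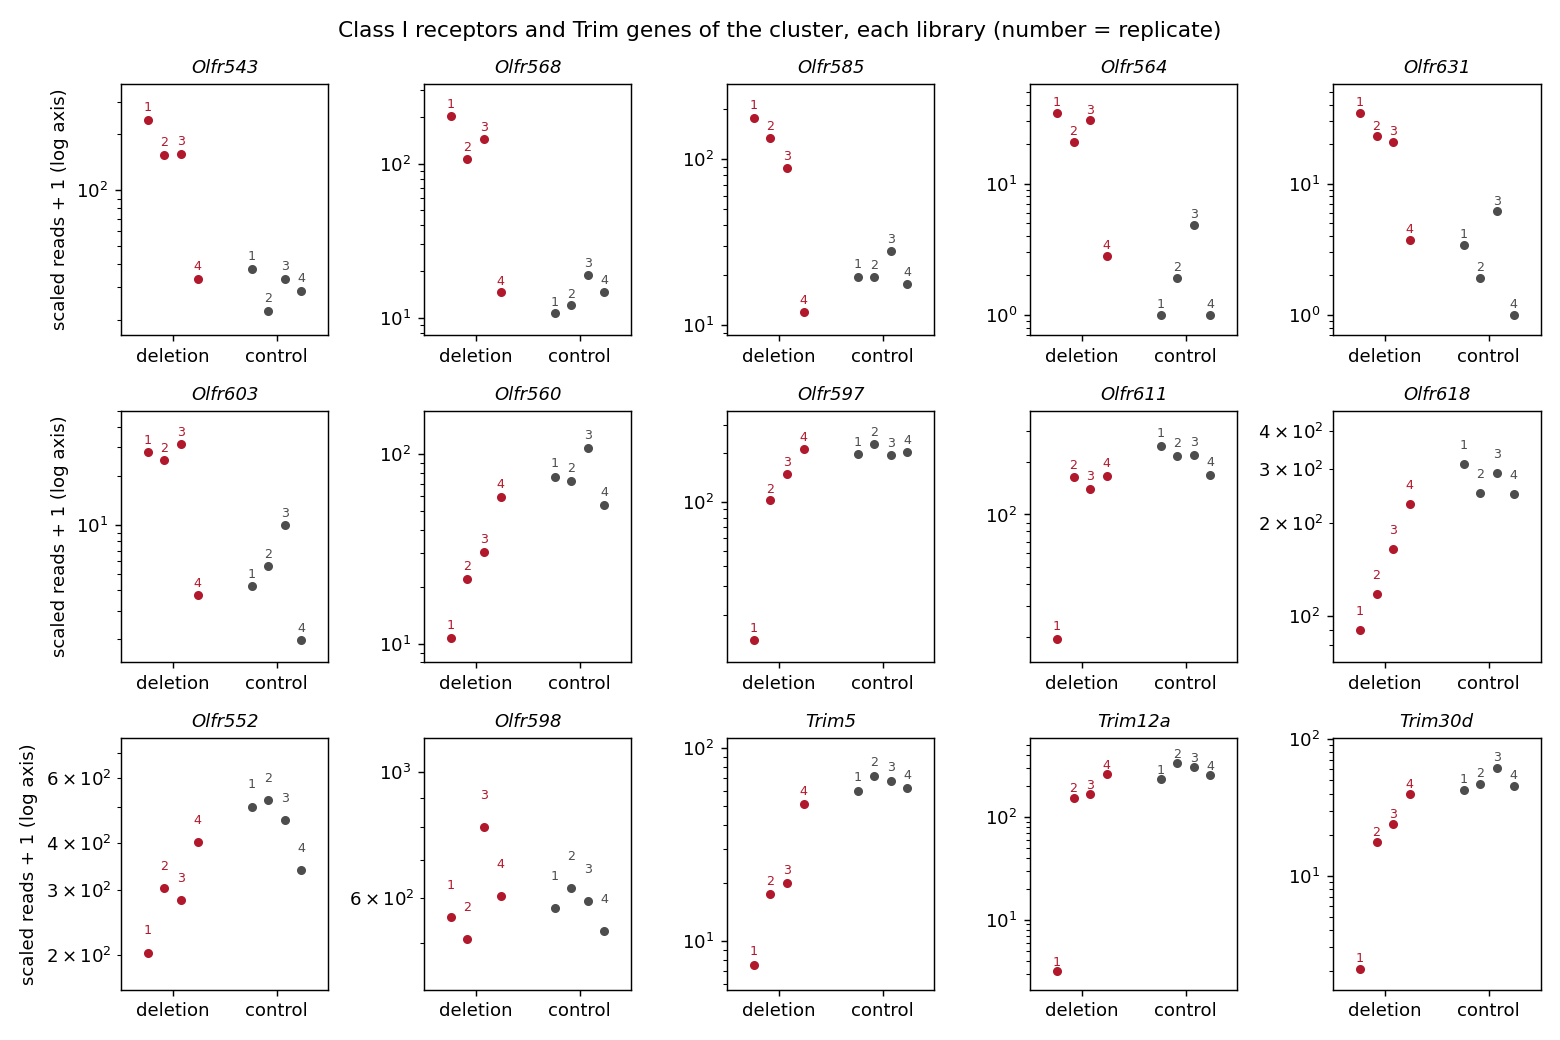
Scaled reads + 1 (log axis) of 12 class I receptors and 3 Trim genes of the same stretch of chromosome 7 in each library, numbered by replicate. Olfr543, Olfr568, Olfr585, Olfr564, Olfr631 and Olfr603 are high in deletion replicates 1, 2 and 3 and near the controls in deletion replicate 4, while Olfr597, Olfr611, Trim12a and Trim30d are lowest in deletion replicate 1 and Olfr598 shows no such low value.

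Among the deletion libraries, class I receptors at least 2-fold away from the controls were found in replicates 1, 2 and 3. Among genes with a mean of at least 50 scaled reads, 17 of 110 class I members were at least 2-fold away from the mean of the controls in some deletion library (15.5%). The share over all 16468 such genes was 2.65%, and it was 2.71% over 812 class II receptors. With the controls treated alike, each against the other 3, 1 of 110 members was at least 2-fold away, where the share over all such genes was 4.1%. With low genes included it was 19 of 116 members in the deletion libraries, against 10.9% of all tested genes, and 3 of 116 in the controls, against 14.3%. The difference between class I and the other genes was not tested. Deletion replicate 1 had 6 of 116 members at least 2-fold above the controls, against 0.319% of all genes, and 12 at least 2-fold below, against 5.1%. Deletion replicate 2 had 3 above and 4 below, against 0.264% and 3.87% of all genes. Deletion replicate 3 had 5 above and 1 below, against 1.13% and 2.41%, and deletion replicate 4 had 0 of either, against 0.874% and 1.33%.

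Most of these departures lay in the first and second of 4 lengths of the cluster. Dividing the 2.89 Mb into 4 equal lengths, 6 of 34 tested members in the first, 10 of 35 in the second, 2 of 22 in the third and 1 of 25 in the last were at least 2-fold away in a deletion library. In the control libraries the counts were 1, 1, 1 and 0. High and low members stood close together: Olfr568, at 3.88, 2.96, 3.39 and 0.09 (log2) from the mean of the controls in deletion replicates 1 to 4, starts 21.8 kb from Olfr566, at -1.34, -0.85, -0.35 and -0.01. The medians of the level in the 4 lengths were 66.4, 69.02, 67.8 and 61.8 scaled reads per kb in deletion libraries and 59.9, 72.9, 75.5 and 59.9 in controls.

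Genes inside the cluster that are not class I receptors also departed from the controls in single libraries; those named here were chosen after their values were seen. Of 26 tested genes that lie between the class I receptors but are not members, 12 were at least 2-fold away from the controls in a deletion library. The same held for 2 of 23 tested genes in the 1 Mb before the cluster and 1 of 18 in the 1 Mb after it, where the share over all tested genes, low ones included, was 10.9%. In the control libraries these counts were 6, 2 and 1, where that share was 14.3%. None of these genes was called by limma (adjusted p of at least 0.869), and 6, 1 and 1 had an unadjusted p under 0.05. Without deletion replicate 4, limma called 2 of the 26 inside the cluster, Olfr587-ps1 (adjusted p = 0.0017) and Trim5 (adjusted p = 0.0473), and 0 of those beside it. Here too this fit was picked after the values were seen, so its p-values are no independent support. Deletion replicate 4 lay inside the control range, with the other 3 deletion libraries above it, in 2 of the 26 genes inside, 1 of the 23 before and 0 of the 18 after, against 1.91% of all tested genes. The other 3 deletion libraries lay below it in 4, 1 and 1 of these genes, against 1.48%.

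Trim12a, one of the Trim genes of antiviral defence in the third length of the cluster (104299894 to 104315466, minus strand), had 2.17, 153, 167 and 262 scaled reads in deletion replicates 1 to 4, against 230, 330, 301 and 253 in control replicates 1 to 4. Trim30d had 1.08, 16.5, 22.7 and 38.4 scaled reads in deletion replicates 1 to 4, against 41.3, 46.2, 60.5 and 44.3 in the controls. Trim5 had 6.50, 16.5, 19.0 and 50.2 scaled reads in deletion replicates 1 to 4, against 59.1, 71.2, 67.0 and 61.0 in the controls. All 3 were lowest in deletion replicate 1 and closest to the controls in deletion replicate 4, as Olfr597 was. Not all Trim genes of the stretch had this order. Of 11 tested Trim genes inside the cluster, 4 had a log2 change above 0 and 7 below, and 6 were at least 2-fold away in a deletion library. Trim34b had 67.1, 24.2, 43.6 and 6.39 scaled reads in deletion replicates 1 to 4, against 7.29, 8.32, 24.5 and 1.97 in the controls, and so was highest in deletion replicate 1. Trim12c had 778, 627, 690 and 514 scaled reads in deletion replicates 1 to 4, against 556, 504, 491 and 547 in the controls, with a log2 change of 0.30. Trim21, Trim68 and Trim30a had log2 changes of 0.00, 0.05 and -0.18, and their groups overlapped. The pseudogene Olfr587-ps1 was high in deletion replicates 1, 2 and 3, with 103, 80.4, 90.05 and 8.22 scaled reads in deletion replicates 1 to 4, against 8.10, 8.32, 10.3 and 15.7 in the controls. Beside the cluster, Rrm1 had 2440, 2396, 1988 and 2352 scaled reads in deletion replicates 1 to 4, against 2559, 1885, 2260 and 2356 in the controls, and its groups overlapped. Pgap2, also before the cluster, did divide, with 823, 1017, 994 and 1189 scaled reads in deletion replicates 1 to 4, against 1234, 1034, 1128 and 1253 in the controls. All 8 samples carry the same mixed strain label, and the strain origin of this stretch of chromosome 7 in each sample is not given in the sources used here, so its part in these values was not tested.

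**Figure D4:**
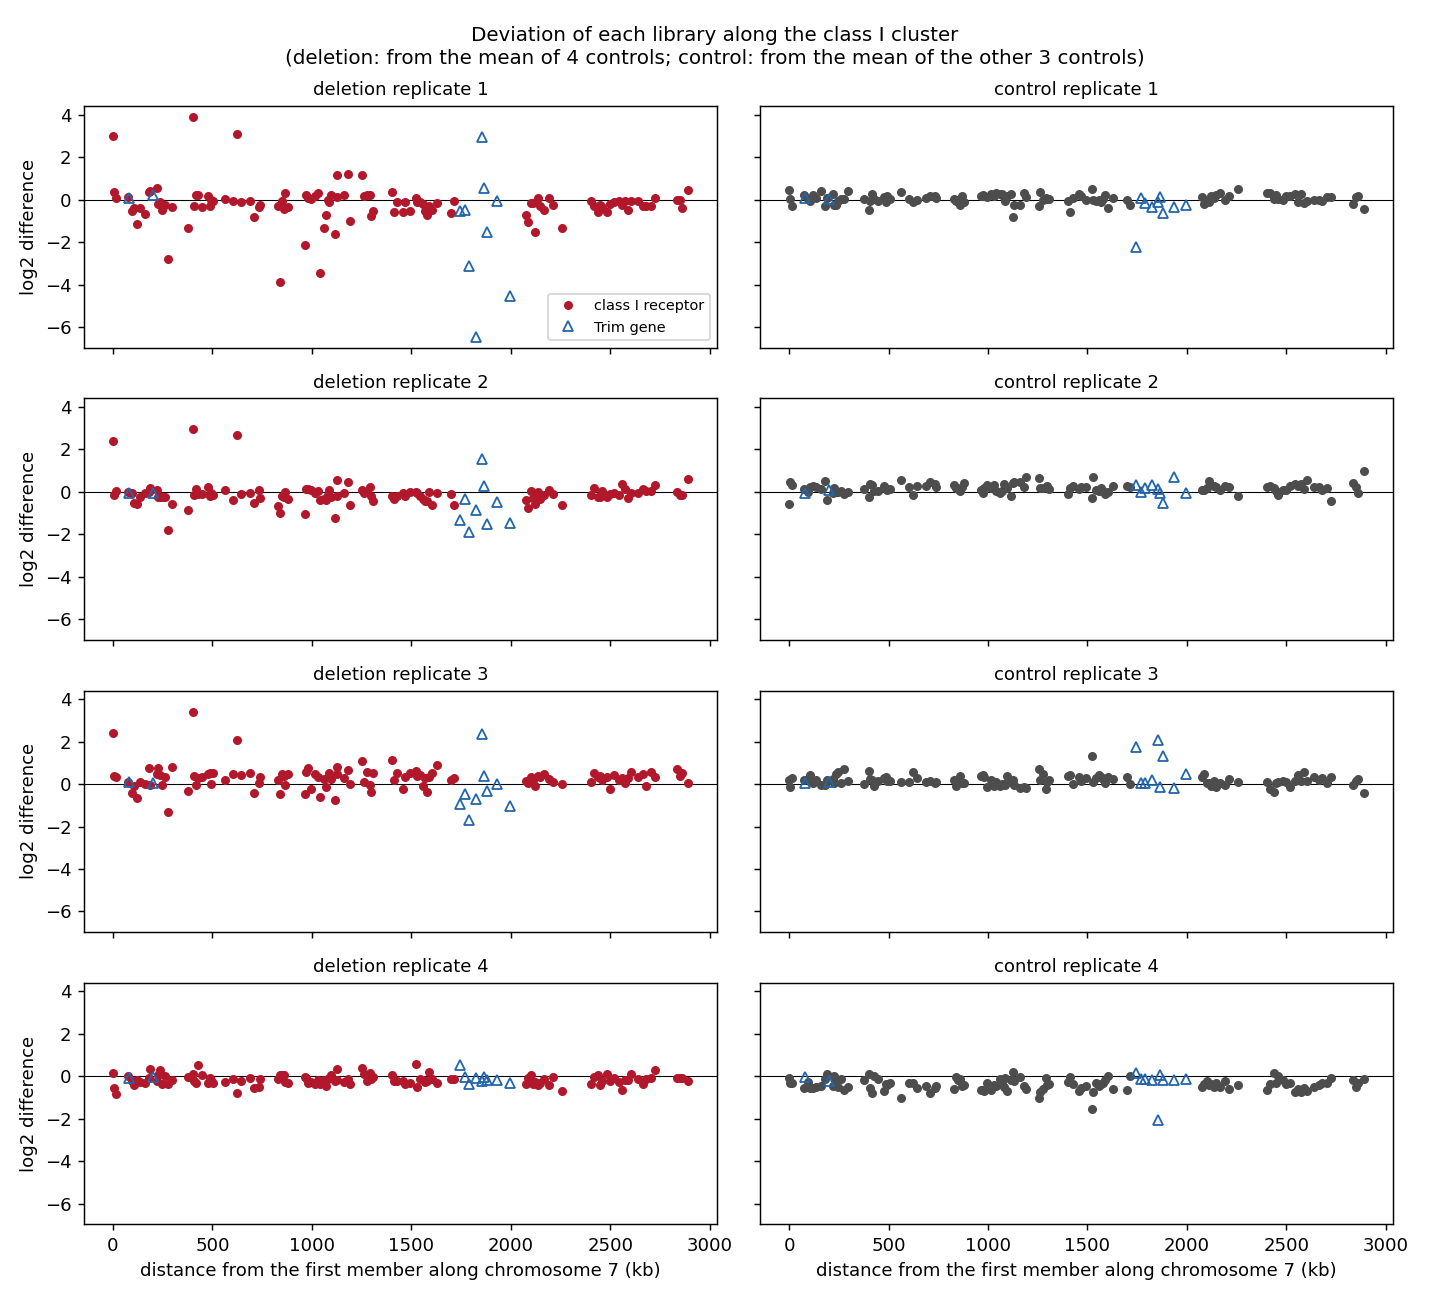
Log2 difference of each library from the controls for the 116 tested class I receptors (circles) and the Trim genes (triangles) by distance from the first member along chromosome 7 (kb); each deletion library is set against the mean of 4 controls and each control against the other 3. Points far from 0 are frequent in deletion replicates 1, 2 and 3 over the first 2 Mb, with receptors both above and below 0, and no receptor is at least 2-fold away in deletion replicate 4.

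Apart from Olfr543, no receptor with a known role or place was called by any tool or in the authors' deposited table. The 6 genes Olfr64 to Olfr69, which flank the beta-globin genes, had log2 changes from -0.37 ± 0.16 (Olfr68) to 0.35 ± 0.26 (Olfr66), with limma adjusted p = 0.869 or more. Olfr68, the lowest of them, was at 213, 315, 274 and 326 scaled reads in deletion replicates 1 to 4, against 365, 415, 383 and 290 in the controls, and its unadjusted p was 0.0382. Olfr69, 97.0% identical to it in the open reading frame, was at 218, 220, 180 and 208 scaled reads in deletion replicates 1 to 4, against 194, 210, 162 and 176 in the controls. Olfr67, Olfr65 and Olfr64 had log2 changes of -0.13, 0.00 and -0.23.

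Olfr78 and Olfr558, receptors for short-chain fatty acids that are also used in blood vessels and other tissues, lie close together in the first length of the cluster. Olfr78 was at 218, 220, 325 and 260 scaled reads in deletion replicates 1 to 4, against 262, 261, 263 and 241 in the controls. Its log2 change was -0.02 ± 0.14 (limma adjusted p = 0.972). Olfr558 was at 158, 152, 305 and 193 scaled reads in deletion replicates 1 to 4, against 160, 199, 188 and 183 in the controls, a log2 change of 0.09 ± 0.20 (limma adjusted p = 0.921). In both genes deletion replicate 3 was the highest of all libraries; without it the log2 changes were -0.14 and -0.12. Vascular smooth muscle markers overlapped between the groups, at 175 to 290 CPM in deletion libraries and 143 to 249 CPM in controls.

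Olfr544, a receptor for azelaic acid, was at 395, 275, 400 and 209 scaled reads in deletion replicates 1 to 4, against 307, 388, 283 and 256 in the controls. The log2 change was 0.02 ± 0.21 (limma adjusted p = 0.984). Olfr545, 90.5% identical to it, had a log2 change of -0.10 ± 0.25 (adjusted p = 0.931 by limma). Both are next to Olfr543 in the cluster, and their groups overlapped. At the far end, Olfr690, a receptor for short carboxylic acids, Olfr691 and Olfr692 had log2 changes of 0.04 ± 0.15, -0.03 ± 0.19 and 0.21 ± 0.29, with limma adjusted p-values of 0.956, 0.97 and 0.885. Olfr692, known from the vomeronasal organ, was at 35.6 to 62.8 scaled reads in deletion libraries and 32.4 to 70.2 in controls. The vomeronasal markers Vmn2r1, Gnai2, Gnao1 and Calr4 summed to 159 to 179 CPM in deletion libraries and 158 to 203 CPM in controls. Trpc2, the ion channel of vomeronasal neurons, was the fifth gene of that list. It was listed at 0 in all 8 libraries and added nothing to the sum. Reads of overlapping genes may have been dropped, so this 0 does not show absence. Xntrpc, before the cluster, had 47.5 to 56.2 scaled reads in deletion libraries and 38.9 to 43.3 in controls. Whether these hold reads of Trpc2 was not tested. Most of the sum was Gnao1 and Gnai2. Vmn2r1 was at 12.3 to 22.02 scaled reads in deletion libraries and 8.85 to 33.5 in controls. Olfr33 had a log2 change of 0.10 ± 0.19 (limma adjusted p = 0.907).

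The genes that choose and serve the receptors did not pass the test. Of 26 genes of receptor choice and odorant signalling, among them Lhx2, Ldb1, Bcl11b, Adcy3 and Rtp1, limma called 0 and 1 had an unadjusted p under 0.05. That gene was Ebf4, one of the Ebf factors that bind receptor promoters, with 4652 ± 265 scaled reads in deletion libraries and 5300 ± 314 in controls (SD, n = 4 each), a log2 change of -0.19 ± 0.07 (limma adjusted p = 0.869). Bcl11b, a transcription factor that sets the choice between class I and class II in mouse, was at 4747 ± 498 scaled reads in deletion libraries and 4779 ± 478 in controls. The median log2 change was 0.07 over these 26 genes. Of 11 genes that mark the dorsal and ventral zones, limma called 0, and 0 had a p under 0.05 before adjustment, with a median log2 change of 0.00. Nqo1 and Acsm4, markers of the dorsal zone where most class I receptors are used, had log2 changes of 0.17 ± 0.16 and 0.13 ± 0.21. Both were highest in deletion replicate 3 among the deletion libraries, at 21284 and 35729 scaled reads, the library with the highest class I share of its group, and in control replicate 2 among the controls, at 18195 and 28836, which had the highest share of all. Nfia, Nfib and Nfix of the same list were also highest of their groups in these libraries. They were at 2033, 8638 and 2106 scaled reads in deletion replicate 3, and 2494, 9356 and 2665 in control replicate 2. Robo2, Slit1, Nrp1, Nrp2, Ncam2 and Sema3f did not peak in both of them. The order was thus not particular to Nqo1 and Acsm4, and its relation to the class I share was not tested.

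The summed markers of sustentacular and respiratory cells stood higher in the deletion libraries. Sustentacular markers (5 genes) summed to 12505 to 14729 CPM in deletion libraries and 11098 to 12022 CPM in controls, and respiratory markers (5 genes) to 7949 to 8545 CPM in deletion libraries and 4932 to 7734 CPM in controls. Neither pair of ranges overlapped, though limma called 0 of the genes in both lists, and no gene of either list was at 0. Most of the sustentacular sum was Cyp2a5, at 337657 ± 47444 scaled reads in deletion libraries and 284008 ± 15680 in controls (SD, n = 4 each). Its groups did not overlap, while those of Sult1c1, Ermn, Cyp1a2 and Cyp2g1 in the same list did. Most of the respiratory sum was Bpifa1, a secreted airway protein, at 283544 ± 11261 scaled reads in deletion libraries and 216658 ± 55659 in controls (SD, n = 4 each). The groups did not overlap for Bpifa1 or for Reg3g of the same list, which had a log2 change of 0.65 ± 0.26. They overlapped for Tff2 (0.56 ± 0.29), Foxj1 (0.20 ± 0.12) and Muc5b, a mucin with a log2 change of -0.08 ± 0.54. Red cell markers (5 genes) summed to 28.3 to 41.6 CPM in deletion libraries and 23.8 to 71.6 CPM in controls, with log2 changes from -0.51 to -0.30, and the groups overlapped. Olfactory bulb markers (4 genes) summed to 14.4 to 18.2 CPM in deletion libraries and 12.4 to 19.8 CPM in controls. Of these Tbr1 had a log2 change of -0.66 ± 0.27 and Slc17a7 of -0.63 ± 0.30, while Eomes had 0.27 ± 0.16, with limma adjusted p = 0.869 for each. Eomes made up most of the sum, at 602 ± 55.6 scaled reads in deletion libraries and 510 ± 125 in controls (SD, n = 4 each). Th, below the filter, was lower in deletion libraries, at 3.17 ± 1.80 scaled reads against 20.6 ± 18.4 in controls, and its groups overlapped. The part of these cell types in the class I values was not tested.

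The sequence before the start of the gene was available from RefSeq (GRCm38.p6) for 108 members. For most of them the RefSeq start lay far from that in GENCODE: the median distance between the RefSeq and GENCODE starts was 3008.5 bases. For 16 members the starts lay within 50 bases of each other, and 6 of these had more than one exon block. The 250 bases before the start are shown for 3 of these 6, the globin-side receptors Olfr69 and Olfr67 and the library-divided Olfr566. TATAAA is in capitals on either strand, as would be the homeodomain cores TAATTA and TAATGA, which are not found in these 3 windows. Of the other 3 windows, that of Olfr607 holds 1 TAATTA, that of Olfr630 holds 2 TAATGA, and that of Olfr544 holds neither. The windows are chr7:103771595-103771844, chr7:103791831-103792080 and chr7:102858766-102859015, all on the minus strand, written 5′ to 3′ towards the start.
Olfr69: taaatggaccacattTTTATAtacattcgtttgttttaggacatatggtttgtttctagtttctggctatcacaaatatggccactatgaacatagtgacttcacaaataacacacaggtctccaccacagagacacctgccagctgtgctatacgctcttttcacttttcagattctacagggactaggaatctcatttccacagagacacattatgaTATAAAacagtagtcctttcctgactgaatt
Olfr67: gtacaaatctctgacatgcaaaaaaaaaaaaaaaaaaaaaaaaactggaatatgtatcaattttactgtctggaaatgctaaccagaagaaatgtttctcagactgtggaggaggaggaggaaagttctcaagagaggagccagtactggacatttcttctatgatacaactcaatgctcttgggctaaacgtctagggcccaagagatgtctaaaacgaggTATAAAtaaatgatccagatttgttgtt
Olfr566: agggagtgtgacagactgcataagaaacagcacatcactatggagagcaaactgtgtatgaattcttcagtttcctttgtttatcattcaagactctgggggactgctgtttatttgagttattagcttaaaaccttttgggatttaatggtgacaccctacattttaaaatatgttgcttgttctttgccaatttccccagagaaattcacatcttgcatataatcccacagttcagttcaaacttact
In the 250 bases before the RefSeq start of all 108 members, TATAAA was found in 38.0%, TAATGA in 23.1% and TAATTA in 14.8%, on either strand. The shares over all 32851 RefSeq entries were 12.4%, 8.59% and 4.84%, and over 836 class II receptors 39.6%, 25.6% and 18.5%. The core that Ebf factors bind, searched on both strands with any bases at its centre, was found in 0 of the 108 members and in 0.779% of all entries. A match of letters is a description and does not show a bound site.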

How the data were processed

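RNA of the olfactory mucosa was sequenced in 4 deletion and 4 control samples. Per the labels, total RNA (Qiagen RNeasy) went into Illumina TruSeq Stranded Total RNA libraries depleted of ribosomal RNA, so unspliced RNA can count. The submitters' processing notes name STAR 2.6.0, DESeq2 and GRCm38.p6. How reads were counted (tool, strand, reads with several matches, annotation) is not given in the sources used here, so reads of overlapping or near-identical receptors may have been split or dropped.

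The authors' deposited per-sample values are a signal: gene reads divided by a size factor. All non-zero values came out as whole reads within a tolerance of 0.001, and these recovered reads give the depth. The authors also deposited their own comparison, with a base mean (signal), a log2 fold change and its error, a score (the test statistic), and raw and adjusted p-values. Only its adjusted p-values are printed, where the authors' table is named. Each column was assigned by group and number; the deletion columns have a different short name from the titles and were taken as the only ones not named for the control. Annotation and transcript sequences are from GENCODE M21, and sequences upstream of genes from RefSeq.

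Genes were kept with filterByExpr (edgeR 4.0.16, minimum count 10), which left 21974. Limma 3.58.1 (R 4.3.3) was fitted to log2(scaled reads + 1), with a pseudocount of 1, trend and robust moderation, and Benjamini-Hochberg adjustment over all tested genes, threshold 0.05. Fold changes on this scale understate those of low genes. The count tests on recovered reads, edgeR (quasi-likelihood, TMM factors) and DESeq2 1.42.0, were alternatives, beside other pseudocounts, filters and scalings, a replicate block and leaving out each library. The test was tested on simulated data. Detection was counted after thinning to 31655524 reads. Summed reads, shares and medians over members are descriptions with no test.

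The named receptors are the 8 with the highest level per kb, the 6 with the smallest limma p in each direction, those called by any tool, 15 with known roles or places, and the 6 with the largest SD within groups. Close copies of these, members below the filter and genes that are not class I receptors were named after their values were seen. The members and gene lists were chosen with earlier results of these data known.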

Additional observations from a re-analysis of the deposited data

Results flagged for a closer look

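Among groups of 4 libraries, 10 of 90 had 1 library standing apart from the other 3 by more than Dixon's critical gap for groups of this size, where chance flags about 1 in 20. In deletion replicate 3, the library whose sex-linked genes go against its label, the class I sum stood apart at 862 CPM and the class I share at 13.0% of receptor reads, both the highest of the deletion group. So did Olfr672 at 995 scaled reads and Olfr65 at 551 scaled reads, also the highest of their group. In control replicate 4, 4 receptors stood apart as the lowest of the controls: Olfr549 at 359.9, Olfr690 at 275 scaled reads, Olfr570 at 233 and Olfr78 at 241 scaled reads. Olfr692 stood apart in control replicate 2, the highest control at 70.2 scaled reads. The number of members with at least 10 reads after thinning was 114 in deletion replicate 4, against 119 in each of the other 3 deletion libraries.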

How the results depend on the processing

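Class I calls depended on the tool and on 1 library. The count of members called higher, 0 by limma, was 2 with DESeq2 and ran from 0 to 3 when each library was left out, 3 without deletion replicate 4; the named members gave the same counts, and no member was called lower under any setting. Over all genes the count was 10 when genes had to average 50 reads, and ran from 13 to 31 when each library was left out, 31 without deletion replicate 4. The difference in detected members, deletion minus control, was 2.75 at a minimum of 10 reads, 0.5 at 1 read and -1 at 50 reads. The labels do not say whether the replicate numbers pair the samples. Deviations of same-numbered libraries correlated at 0.33, 0.0878, -0.17 and 0.0533. Differently numbered libraries were not correlated for comparison, so these values cannot decide on pairing. With a replicate block 0 members and 14 genes over all were called. Of 708 values of single genes under alternatives, 666 kept their direction and side of the threshold, 8 passed it and 34 had the other sign, the last in 14 of 42 genes. With odorant receptor totals as the scaling the log2 changes were -0.0077 for Olfr672, -0.0382 for Olfr544, -0.0188 for Olfr690 and -0.0536 for Olfr65. With library totals Olfr544 was at -0.0099 and Olfr65 at -0.0254. Leaving out 1 library at a time, the ranges that crossed 0 were -0.12 to 0.21 for Olfr558, -0.0181 to 0.15 for Olfr653, -0.0608 to 0.16 for Olfr598, -0.0123 to 0.21 for Olfr33, -0.0775 to 0.12 for Olfr672, -0.34 to 0.0136 for Olfr67, -0.0796 to 0.12 for Olfr549, -0.10 to 0.21 for Olfr544, -0.0861 to 0.10 for Olfr690, -0.24 to 0.14 for Olfr545, -0.20 to 0.10 for Olfr570, -0.17 to 0.0809 for Olfr65, -0.14 to 0.0474 for Olfr78 and -0.22 to 0.0916 for Olfr691. Depth limits the 10 members below the filter, which the main fit did not test. With no filter on low values, limma tested all 126 members and called none.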
